A study of Mus musculus with 8 samples.

Results

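Cytochrome P450 genes were followed in the olfactory mucosa of mice, where odour-sensing neurons lie among supporting cells and mucus glands. Members were all probe sets whose only platform gene symbol is Cyp followed by a family number, a subfamily letter and a gene number, and each gene was given the value of its brightest probe set over all arrays. This gave 39 genes with 46 probe sets among 8251 genes with 12488 probe sets. A further 7 probe sets name several genes, a P450 gene among them, and were not used. The members therefore do not cover every mouse P450 gene.

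The series has 8 single-colour arrays in 4 groups of 2. C57BL/6 mice received carrier or CCL3, a chemokine that draws macrophages and is also called MIP-1a. Mice labelled as lacking the Ccl3 gene (Ccl3-/-, Mip-1a-KO in the titles) received the same 2 injections. The labels place all groups in an experiment on bilateral bulbectomy, the removal of the neurons' target in the brain, so there is no unoperated group. The sources used here do not give age, dose, route or time after surgery. The labels number 2 replicates per group without saying that they are separate animals, so every p-value measures only the spread between these arrays.

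P450 enzymes are haem proteins that insert oxygen into small hydrophobic molecules. Families CYP1 to CYP3 act mainly on foreign compounds, whereas the other families handle fatty acids, steroids, bile acids, vitamin D and retinoic acid. In the olfactory mucosa they are known from the supporting (sustentacular) cells and the Bowman glands, where they oxidise inhaled chemicals and odorants. They depend on electron donors such as cytochrome b5 and on haem, and their products pass to conjugating enzymes.

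Intensities on the arrays were already on a common scale, with a median of 581.4 to 660.3 per array. The tissue label was set beside its markers, and the olfactory marker protein Omp ranked 185 of 8251 genes. All 14 sustentacular markers on the array passed the filter for dim signals. So did probe sets of 6181 genes, and this count therefore says little alone. Of 13 horizontal basal cell markers, Krt5, Krt14 and Krt15 did not pass. The targeted gene did not follow the labels. The Ccl3 probe set gave 332.3, 159.4, 223.1 and 386.5 on C57BL/6 arrays and 727.3 to 812.2 on arrays labelled Ccl3-/-, so a direction between genotypes rests on the labels alone. C57BL/6 carrier replicate 1 stood apart in some controls and not in others. Its 3' to 5' probe set ratio was 2.59 at Gapdh against 0.755 to 1.31 on the other arrays, but 1.58 at beta-actin, the lowest of the 8, against 1.61 to 2.17. The neuron marker Omp read 4251 there against 8657 to 21779, while the 12 mature neuron markers averaged 0.20 above their log2 mean. The nasal secretory products Lcn3 and Lcn4 read 92.4 and 22.4 there, against at least 11526 and 2124 elsewhere. They belong to a list of Bowman gland and nasal secretory markers. Wfdc18 (59337), Ltf (52407) and Sox10 (3157) of the same list were within the range of the other arrays.

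The promoters of 3 genes are printed as examples of the P450 genes that the levels and the CCL3 comparison turn on. Cyp4a12b, another of these genes, had no promoter in the RefSeq table. The promoters of Cyp4b1 and Cyp2s1 held none of the letters searched and are not printed. Each printed promoter is the 250 bases before the RefSeq start of the gene in GRCm38.p6, 5′ to 3′ on the gene's strand. They lie at chr7:27119705-27119954 (plus strand) for Cyp2f2, at chr9:57683656-57683905 (minus strand) for Cyp1a2 and at chr9:57697363-57697612 (plus strand) for Cyp1a1. Capitals mark GCGTG (the core bound by the aryl hydrocarbon receptor), TATAAA (the TATA box) and AGGTCA (a core bound by nuclear receptors), searched on both strands.
Cyp2f2: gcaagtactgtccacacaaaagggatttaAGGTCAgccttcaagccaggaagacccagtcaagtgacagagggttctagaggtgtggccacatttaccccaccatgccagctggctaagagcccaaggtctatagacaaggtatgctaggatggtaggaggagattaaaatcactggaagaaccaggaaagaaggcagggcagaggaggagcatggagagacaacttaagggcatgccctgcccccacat
Cyp1a2: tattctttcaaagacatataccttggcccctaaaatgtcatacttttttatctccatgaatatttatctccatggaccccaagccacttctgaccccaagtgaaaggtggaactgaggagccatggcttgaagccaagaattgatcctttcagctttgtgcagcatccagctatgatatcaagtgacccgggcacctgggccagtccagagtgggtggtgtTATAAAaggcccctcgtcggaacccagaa
Cyp1a1: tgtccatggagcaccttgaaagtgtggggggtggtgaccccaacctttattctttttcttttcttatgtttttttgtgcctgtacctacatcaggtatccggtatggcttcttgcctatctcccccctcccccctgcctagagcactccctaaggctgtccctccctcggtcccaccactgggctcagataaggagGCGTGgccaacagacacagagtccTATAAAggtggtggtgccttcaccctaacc
Cyp1a1 held GCGTG at 54 bases and TATAAA at 30 bases before the start. Cyp1a2 held TATAAA at 29 bases and no GCGTG, and Cyp2f2 held only AGGTCA, at 221 bases. Of the 31 member genes with a promoter in the RefSeq table, 14 held TATAAA, against 12.4% of all 32851 promoter windows of this length. AGGTCA was in 11 of 31, against 14.0% of all windows, and GCGTG was in 4 of 31, against 28.2%. TTGGC, which lies in sites of nuclear factor I, was also searched on both strands and was in 18 of 31, against 41.5%. The 4 with GCGTG were Cyp1a1, Cyp1b1, Cyp2b10 and Cyp4v3. All 4 are among the 16 of the 31 genes that passed the filter for dim signals, Cyp1b1 on only 3 arrays. Of these 16, 5 held TATAAA, 3 held AGGTCA and 10 held TTGGC. A relation of these letters to the signal was not tested. The match of letters is a description of these windows and does not show that a factor binds there.

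A few P450 genes lay among the brightest signals of the tissue and most were dim. Cyp2f2, known for oxidising naphthalene in airway cells, ranked 32 of 8251 genes by mean intensity, in the brightest 0.388%. Cyp1a2, known for oxidising aromatic amines, ranked 48, in the brightest 0.582%. Cyp4b1 ranked 303, Cyp4a12b ranked 467 and Cyp1a1 ranked 741. These 5 genes made up the members in the brightest 10% of genes, with 10 members in the brightest 25% and 13 in the brightest 50%. A rank of intensity compares probe sets, which bind with different strength, and is not a rank of transcript number.

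Of the 39 genes, 14 exceeded the filter value of 362.7 on all 8 arrays and 18 exceeded it on none. The test needed at least 2 arrays above it, which left 19 members tested and 20 untested. Of the untested members, 13 had a mean under 102.3, the value added before taking logarithms. Cyp2f2 and Cyp1a2 carried 56.4% to 63.7% of the summed intensity of the 39 genes on 7 arrays and 43.3% on C57BL/6 carrier replicate 1.

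**Figure D1:**
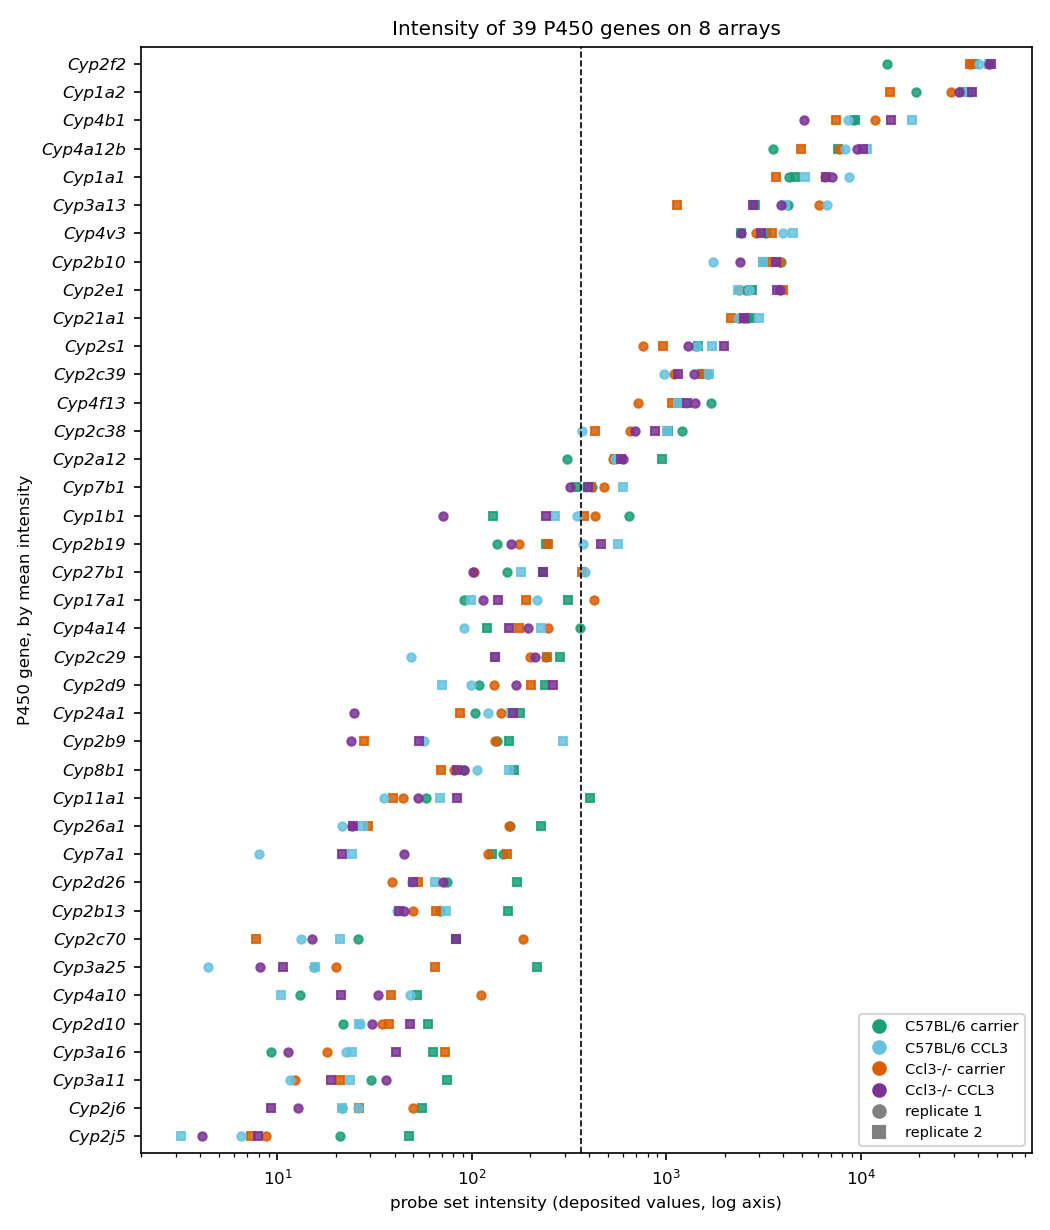
Intensity of the 39 P450 genes on each of 8 arrays, ordered by mean (horizontal axis logarithmic, deposited values). Colours are the 4 groups, circles and squares are replicates 1 and 2, and the dashed line is the filter value of 362.7; Cyp2f2 and Cyp1a2 stand at the bright end and 18 genes stay left of the line on every array.

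Within the 17 genes of the xenobiotic CYP2 family the mean ranged from 13.3 for Cyp2j5 to 37955 for Cyp2f2, and 8 were tested. The 3 CYP1 genes, which respond to aromatic hydrocarbons, were all tested, from Cyp1b1 at 313.4 to Cyp1a2 at 29654. Among the 6 CYP4 genes, which hydroxylate fatty acids, 4 were tested and Cyp4b1 was the brightest at 10519.6. Of the 4 CYP3A genes only Cyp3a13, a member expressed outside the liver, was tested, with a mean of 3963. Cyp3a11, Cyp3a16 and Cyp3a25, known from liver, had means of 28.5 to 44.5 and ranks of 7962 to 8132. The steroid, bile acid and vitamin groups gave 1 tested member of 3 each, namely Cyp21a1, Cyp7b1 and Cyp27b1.

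Members close together on a chromosome, here taken as at most 20 places apart in the order of protein-coding genes, had very different signals. On chromosome 7, 7 members form such a neighbourhood, and their ranks ran from 32 for Cyp2f2 through 1609 for Cyp2b10 to 7682 for Cyp2b13. On chromosome 4, Cyp4b1 and Cyp4a12b were bright, whereas Cyp4a14 and Cyp4a10 of the same group of 4 ranked 6576 and 8007. On chromosome 9, Cyp1a2 and Cyp1a1 are in a neighbourhood with Cyp11a1, which starts steroid synthesis and ranked 7363.

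In 7 members a gene had more than 1 probe set, and the choice of the brightest mattered for some. The probe sets of Cyp1a1 had means of 5829.5 and 196.2, those of Cyp4f13 had means of 1215 and 180.9, and those of Cyp7b1 had 417.8 and 330.2. In all, 11 member probe sets carry a suffix letter (s, f or r). Those of Cyp4b1, Cyp21a1 and Cyp2c38 carry s or f, which mark sequence shared with other transcripts. Their values may include close relatives and are uncertain for the named gene.

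Cyp2f2 gave 13645 and 38293 in C57BL/6 after carrier, 36616 and 36265 in Ccl3-/- after carrier, 40541 and 45846 in C57BL/6 after CCL3, and 45490.1 and 46947 in Ccl3-/- after CCL3. All 4 CCL3 arrays lay above all 4 carrier arrays. The 3 carrier arrays other than C57BL/6 carrier replicate 1 lay within a narrow band, from 36265 to 38293, against 40541 to 46947 after CCL3. Leaving out that replicate made the difference smaller, as given below.

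Cyp1a2 gave 19138 and 33425 in C57BL/6 after carrier, 29109.6 and 14171 in Ccl3-/- after carrier, 36267 and 35998 in C57BL/6 after CCL3, and 31976 and 37151 in Ccl3-/- after CCL3. The CCL3 arrays were the closer together, but C57BL/6 carrier replicate 2 exceeded 1 of them, so the injections overlapped. Cyp1a1, which oxidises polycyclic hydrocarbons and shares its locus, gave 4252 and 4601, then 6511 and 3639.8, against 8739 and 5148, then 7135 and 6610.4, in the same order of groups. Its injections overlapped at the Ccl3-/- carrier array of 6511.

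Cyp4a12b, which hydroxylates arachidonic acid, gave 3529.5 and 7591 in C57BL/6 and 7719.6 and 4911 in Ccl3-/- after carrier, and 8301 and 10738 in C57BL/6 and 9546 and 10245 in Ccl3-/- after CCL3. Here too all CCL3 arrays lay above all carrier arrays. Over the 8251 genes, 1.41% had their 4 CCL3 arrays above their 4 carrier arrays, and of the 39 P450 genes 2 did, Cyp2f2 and Cyp4a12b.

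Cyp4b1, which activates several protoxins in airway, gave 9247 and 9286 in C57BL/6 and 11870.4 and 7457 in Ccl3-/- after carrier, and 8570 and 18319.6 in C57BL/6 and 5129 and 14278 in Ccl3-/- after CCL3. Its replicates differed most after CCL3, and all groups overlapped. Cyp3a13 gave 4223 and 2845, then 6064 and 1130.2 after carrier, and 6710.0 and 4049.7, then 3906 and 2777 after CCL3, with C57BL/6 before Ccl3-/-. The low value of 1130.2 came from Ccl3-/- carrier replicate 2. That array had the lowest mean of the mature neuron markers (-0.66 in log2 around their mean, against -0.17 to 0.35 elsewhere). Its sustentacular markers were at -0.13 and its Bowman gland and nasal secretory markers at 0.27. A relation of these markers to the Cyp3a13 value was not tested.

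Cyp4v3, whose human counterpart hydroxylates fatty acids in the eye, gave 3262 and 2429.9 in C57BL/6 and 2873 and 3509.5 in Ccl3-/- after carrier, and 3964 and 4467 in C57BL/6 and 2412 and 3074 in Ccl3-/- after CCL3. C57BL/6 arrays after CCL3 were above every other array, but the share of all genes with such an order was not counted. Cyp2b10, the classical target of the receptor CAR, gave 3904 and 3146 in C57BL/6 and 3831 and 3512 in Ccl3-/- after carrier, and 1728 and 3138 in C57BL/6 and 2396 and 3639.6 in Ccl3-/- after CCL3. Its highest CCL3 array lay inside the carrier range.

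Cyp2e1, which oxidises ethanol and small solvents, gave 2566 and 2742 in C57BL/6 and 2373 and 3997 in Ccl3-/- after carrier, and 2669.7 and 2342 in C57BL/6 and 3839 and 3701 in Ccl3-/- after CCL3. Of its 4 arrays labelled Ccl3-/-, 3 lay above every C57BL/6 array, and the share of all genes with such an order was not counted. Cyp21a1, an adrenal steroid hydroxylase, ranged only from 2156 to 2995 over the 8 arrays, a coefficient of variation of 10.3%, and its groups lay close together.

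Cyp2s1, found in epithelia outside the liver, gave 1419.6 and 1461 in C57BL/6 and 760.5 and 957 in Ccl3-/- after carrier, and 1441 and 1714 in C57BL/6 and 1288 and 1976 in Ccl3-/- after CCL3. Its Ccl3-/- carrier arrays were below the other 6. Cyp2c39, which acts on retinoic acid, ran from 966.8 to 1660.0. Its C57BL/6 carrier arrays (1639 and 1526) lay above its Ccl3-/- CCL3 arrays (1384 and 1143), and the other pairs of groups overlapped. Cyp2c38, which acts on arachidonic acid, gave 1199 and 1023 in C57BL/6 and 648 and 429.6 in Ccl3-/- after carrier, and 369 and 1003 in C57BL/6 and 689 and 869 in Ccl3-/- after CCL3. After carrier its genotypes did not overlap, and after CCL3 they did. The share of all genes with such orders between these small groups was not counted. The separations of Cyp2s1, Cyp2c39 and Cyp2c38 therefore only describe these arrays and are not shown to be particular to these genes.

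**Figure D2:**
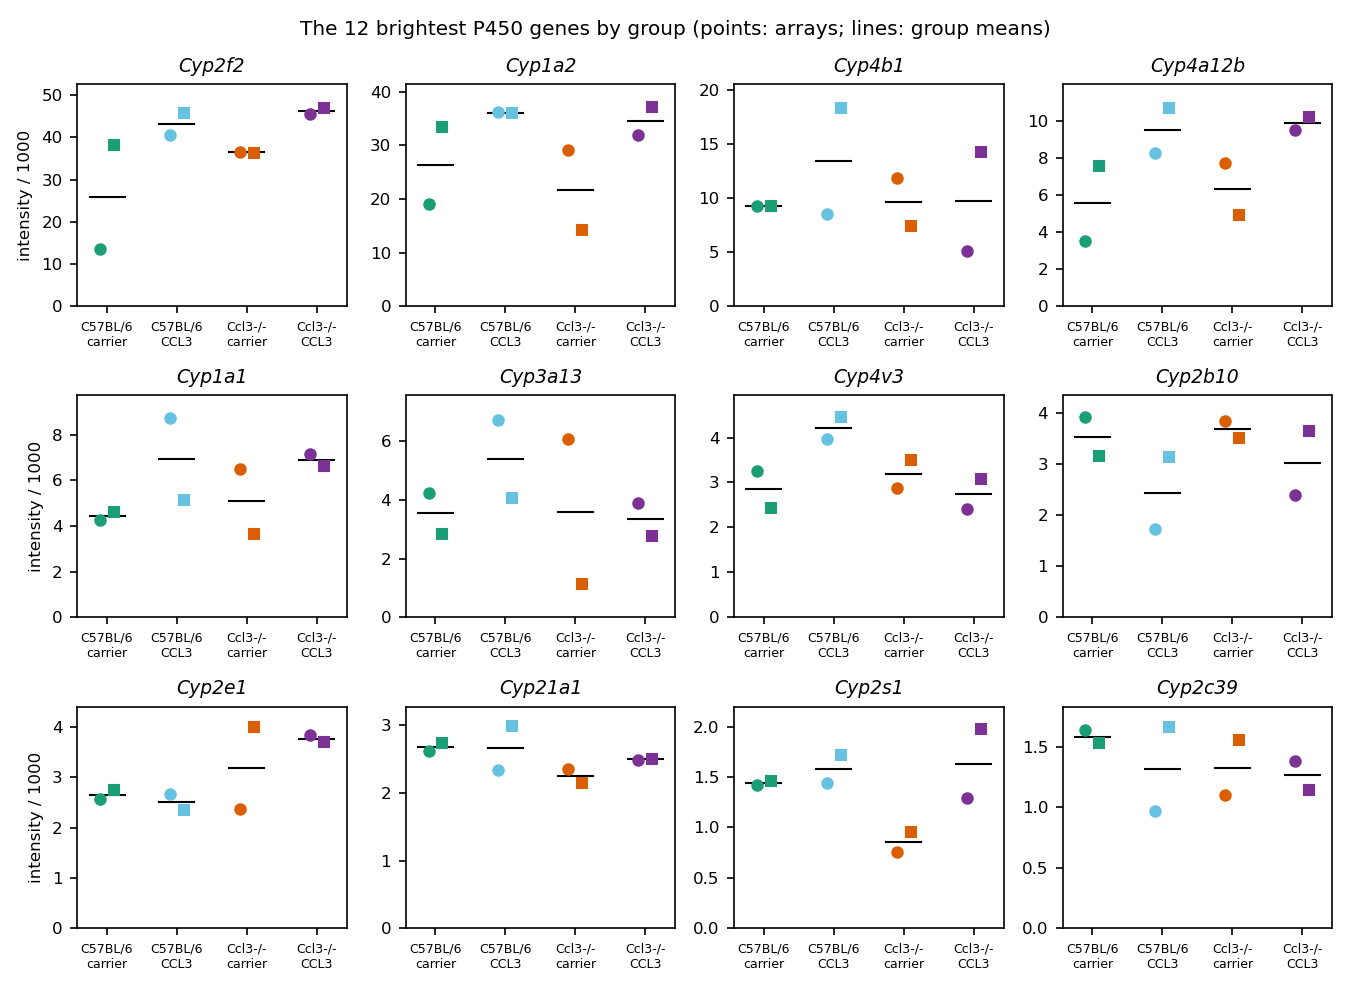
Intensity (in units of 1000, linear axis from 0) of the 12 brightest P450 genes in the 4 groups; points are arrays (circle replicate 1, square replicate 2) and lines are group means of 2 arrays. Cyp2f2 and Cyp4a12b have all CCL3 arrays above all carrier arrays, and the lowest Cyp2f2 value, 13645, is C57BL/6 carrier replicate 1.

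The arrays were next compared by group in limma, with differences on the scale of log2(intensity + 102.3), which understates changes of dim genes, and adjustment over all 8150 probe sets tested. In none of the 7 comparisons did a P450 gene pass an adjusted p of 0.05, and 0% of all probe sets did. The lowest adjusted p of any member ran from 0.412 after carrier between genotypes to 1.00 after CCL3 between genotypes. With all 8 arrays, every P450 difference named from here on therefore failed the correction, and is given as a value with its standard error from 2 arrays per group. Cyp2f2 passed only when C57BL/6 carrier replicate 2 was left out. All comparisons of CCL3 with carrier share arrays with the average over genotypes and are not separate evidence.

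Averaged over genotypes, CCL3 arrays were higher than carrier arrays for 15 of 19 tested P450 genes, with a median log2 difference of 0.15. Of all probe sets, 51.6% were higher, with a median of 0.01. The P450 split moved with single arrays, from 11 higher and 7 lower without Ccl3-/- carrier replicate 2 to 16 and 2 without C57BL/6 CCL3 replicate 1. It was 12 and 7 without C57BL/6 CCL3 replicate 2 or Ccl3-/- CCL3 replicate 2. The P450 median ran from 0.090 without Ccl3-/- CCL3 replicate 2 to 0.22 without Ccl3-/- CCL3 replicate 1. At an unadjusted p under 0.05 in limma, 5 members were higher and none of the 19 lower, against 2.36% and 2.17% of all probe sets. Cyp4a12b was 0.76 ± 0.26 SE higher (1.70-fold, unadjusted p = 0.0153 in limma). Cyp1a2 was 0.64 ± 0.25 higher (unadjusted p = 0.0315 in limma), and Cyp2f2 was 0.63 ± 0.28 higher (unadjusted p = 0.0462 in limma). The remaining 2 were Cyp1a1 at 0.54 ± 0.24 and Cyp2s1 at 0.47 ± 0.19. The adjusted p of all 5 was 0.969 in limma.

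The count of 5 members at that level rested on single arrays. It fell to 1 without C57BL/6 carrier replicate 1, without Ccl3-/- carrier replicate 2, without C57BL/6 CCL3 replicate 2 or without Ccl3-/- CCL3 replicate 2, and to 2 without C57BL/6 CCL3 replicate 1 and 3 without Ccl3-/- CCL3 replicate 1. Without C57BL/6 carrier replicate 1, the average CCL3 difference was 0.26 for Cyp2f2, 0.49 for Cyp4a12b and 0.44 for Cyp1a2. The same array left Cyp1a1 at 0.51 and Cyp2s1 at 0.46. Without Ccl3-/- carrier replicate 2, Cyp1a1 was 0.33 and Cyp1a2 0.38, without C57BL/6 CCL3 replicate 1 Cyp1a1 was 0.35, and without C57BL/6 carrier replicate 2 Cyp2f2 was 1.00. The direction of the 5 differences stayed the same in all 19 alternatives run for this average.

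In C57BL/6 alone, 12 of 19 P450 genes were higher after CCL3 and 7 lower (median 0.29, against -0.02 for all probe sets). Cyp2f2 was 0.91 ± 0.39 higher (unadjusted p = 0.0414 in limma) and Cyp4a12b 0.85 ± 0.37 higher (unadjusted p = 0.0437 in limma). These were 2 members higher and 0 lower at that level, against 1.98% and 2.32% of all probe sets. Without C57BL/6 carrier replicate 1 the differences were 0.17 and 0.31. Without C57BL/6 carrier replicate 2 the Cyp2f2 difference was 1.65 (adjusted p = 0.0241 in limma), since the carrier group was then replicate 1 alone.

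On the arrays labelled Ccl3-/-, 12 members were higher and 7 lower after CCL3 (median 0.28, against 0.03). Cyp2s1 was 0.83 ± 0.27 higher (1.78-fold, unadjusted p = 0.0129 in limma), the only one of 19 at that level in this comparison, against 2.77% of all probe sets higher and 2.12% lower. Its difference was 0.54 without Ccl3-/- CCL3 replicate 2 and 1.12 without Ccl3-/- CCL3 replicate 1. The count of members at that level moved when single arrays were left out. It moved also without a C57BL/6 carrier array, which left these differences unchanged (median 0.28) and altered only the spread used by limma. Cyp1a2 was 0.76 ± 0.36 higher and Cyp4a12b 0.67 ± 0.37 higher, both outside that level. Cyp2f2 differed by 0.34 ± 0.39.

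Whether the CCL3 difference itself differed between genotypes was tested as an interaction. No member reached an unadjusted p under 0.05 in limma, against 3.19% of all probe sets higher and 1.87% lower. The estimate was -0.57 ± 0.55 for Cyp2f2, -0.18 ± 0.52 for Cyp4a12b and 0.25 ± 0.51 for Cyp1a2, so at this spread neither a like nor an unlike response of these 3 genes was resolved. Cyp2c38 had the largest estimate, 1.22 ± 0.56 (unadjusted p = 0.0531 in limma).

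**Figure D3:**
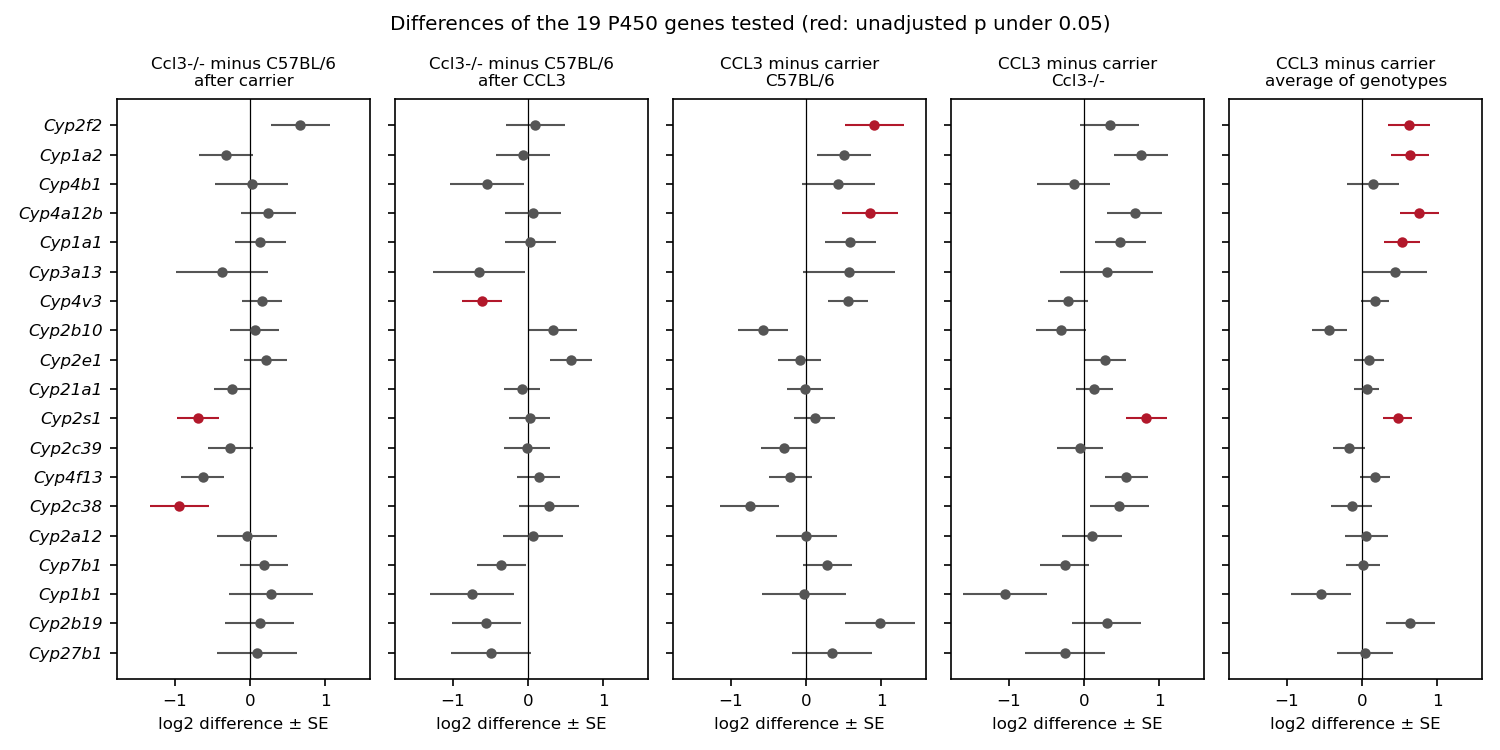
Log2 differences ± SE of the 19 tested P450 genes in 5 comparisons (2 arrays per group), genes ordered by intensity, with red for an unadjusted p under 0.05. In the average over genotypes 5 genes are red, all to the right of 0, and no gene passed the adjusted threshold.

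Between genotypes after carrier, 11 members were higher and 8 lower on the arrays labelled Ccl3-/- (median 0.06, against -0.03). This balance turned to 7 higher and 12 lower (median -0.098) without C57BL/6 carrier replicate 1, and to 8 and 11 (median -0.026) without Ccl3-/- carrier replicate 1. Cyp2c38 was 0.94 ± 0.39 lower (1.92-fold, unadjusted p = 0.0383 in limma) and Cyp2s1 0.69 ± 0.27 lower (1.61-fold, unadjusted p = 0.0308 in limma). These were 2 of 19 lower and 0 higher, against 6.4% of all probe sets lower and 5.03% higher. Cyp2f2 differed by 0.67 ± 0.39, which became -0.07 without C57BL/6 carrier replicate 1 and 1.41 (adjusted p = 0.0263 in limma) without C57BL/6 carrier replicate 2.

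After CCL3, 9 members were higher and 10 lower on the arrays labelled Ccl3-/- (median -0.01, against 0.02). Cyp4v3 was 0.61 ± 0.27 lower (unadjusted p = 0.0453 in limma), the single member at that level, against 0.663% of all probe sets lower and 0.822% higher. None of the tested members was lower at that level without either C57BL/6 CCL3 array, without either Ccl3-/- carrier array or without Ccl3-/- CCL3 replicate 1. The members split into 5 higher and 13 lower (median -0.18) without C57BL/6 CCL3 replicate 1 and into 11 and 8 without C57BL/6 CCL3 replicate 2 (median 0.080) or Ccl3-/- CCL3 replicate 1 (median 0.040). Cyp2e1 was 0.57 ± 0.28 higher and did not reach it. Averaged over injections, 6 members were higher and 13 lower (median -0.19, against -0.01). Without Ccl3-/- CCL3 replicate 1 these were 9 and 10 (median -0.019), and the median was -0.066 without Ccl3-/- carrier replicate 2, -0.071 without C57BL/6 CCL3 replicate 2, -0.12 without C57BL/6 carrier replicate 1 and -0.13 without Ccl3-/- carrier replicate 1. With all arrays, none of the 19 reached an unadjusted p under 0.05, against 3.03% of all probe sets higher and 2.9% lower.

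The 20 untested members were dim. Cyp7a1, the rate-limiting enzyme of bile acid synthesis, read 121 to 152 on the carrier arrays and 8.0 to 44.7 on the CCL3 arrays. Cyp26a1, which degrades retinoic acid, read 29.1 to 225.3 after carrier and 21.4 to 27.5 after CCL3. These 2 of 39 members, named after their values were seen, had all CCL3 arrays below all carrier arrays, against 1.66% of all 8251 genes. All these intensities are under the filter value, where the differences of dim signals are least certain.

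With no filter the sign of the P450 median turned. All 39 members then gave 16 higher and 23 lower in the CCL3 average, with a median of -0.14, against 46.4% of all 8251 genes higher and a median of -0.02. Of the 20 dim genes, 3 had an unadjusted p under 0.05 in limma and were lower (Cyp7a1, Cyp26a1 and Cyp2c29) and none of the 20 was higher, against 3.34% of all probe sets lower and 1.86% higher with no filter. The log2 difference was -0.92 ± 0.17 for Cyp7a1 (unadjusted p = 0.000345 and adjusted p = 0.656 in limma). It was -0.87 ± 0.23 for Cyp26a1 and -0.60 ± 0.24 for Cyp2c29. Of the 20, 12 were highest on C57BL/6 carrier replicate 2, as were 46.3% of all 2072 untested genes. Cyp11a1 reached 405.6 there and at most 83.4 elsewhere, and Cyp3a25, a liver gene, 216.8 against at most 64.9.

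Of 22 hepatocyte markers, 14 did not pass the filter. The summed intensity of all 22 was 6994 and 12078 on C57BL/6 carrier replicates 1 and 2, against 3994 to 5338 on the other 6 arrays. Albumin read 1045.5 and 1301 on those 2 arrays and 171 to 476 elsewhere. Among the 20 dim P450 genes, 1 was highest on C57BL/6 carrier replicate 1, against 12 on replicate 2. Of the 8 tested hepatocyte markers, 6 were lower and 2 higher on arrays labelled Ccl3-/- after carrier. The part of these markers in the dim P450 signals was not tested.

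The 14 sustentacular markers that are not P450 genes showed 7 higher and 7 lower in the CCL3 average, with a median of -0.00. Their summed intensity was 134456 to 181593 after carrier and 140952 to 179931 after CCL3. The summed intensity of the 39 P450 genes was 75781 to 117343 after carrier and 121553 to 142286 after CCL3, so these sums did not overlap, and Cyp2f2 with Cyp1a2 made most of them. Without these 2 genes the sums overlapped, at 37872 to 50739.5 and 44087 to 60441. The 11 Bowman gland and nasal secretory markers gave 7 higher and 4 lower (median 0.14, or 0.019 without C57BL/6 carrier replicate 1), and their sums overlapped too. In tissue RNA, fewer cells of a type and less RNA per cell cannot be told apart.

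**Figure D4:**
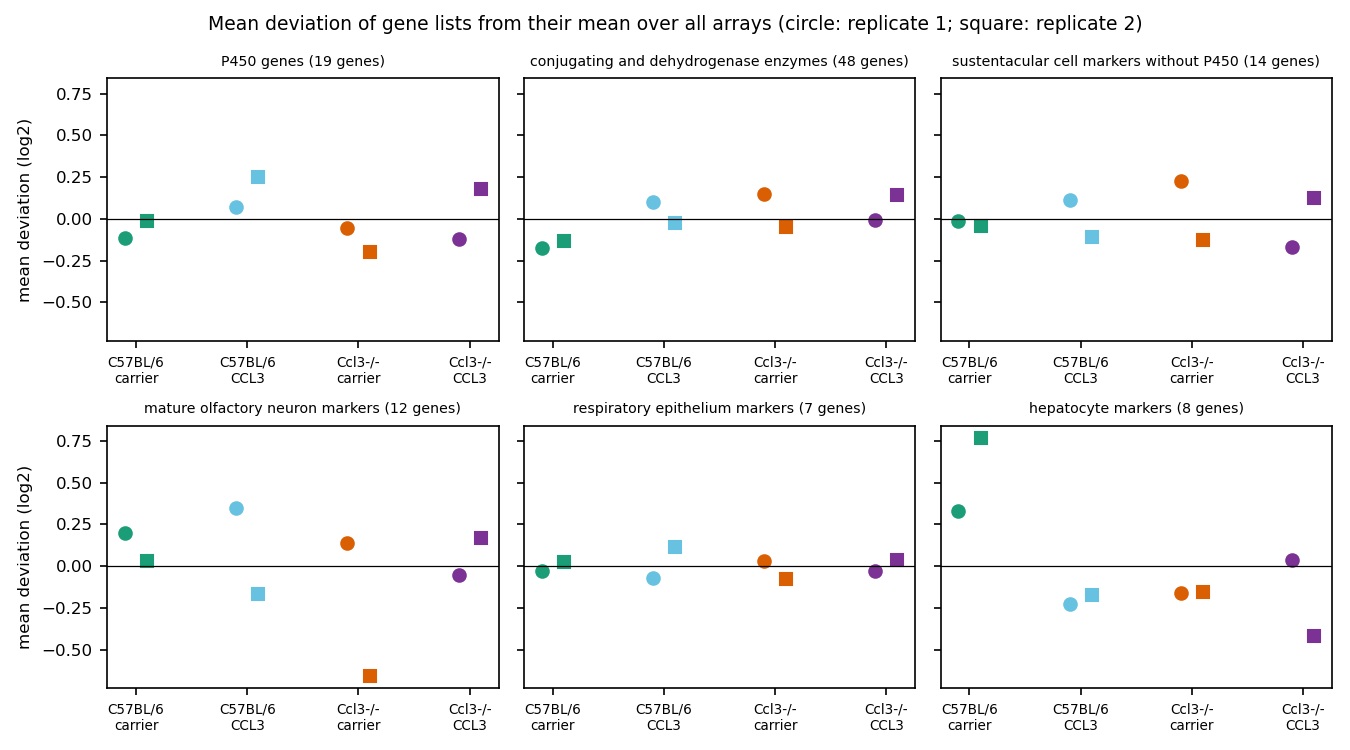
Mean log2 deviation of 6 gene lists from their own mean over all 8 arrays, by group (circle replicate 1, square replicate 2; tested genes only, their number in each title). The P450 genes lie within -0.20 to 0.25 with injections overlapping, and the hepatocyte markers are highest on the C57BL/6 carrier arrays, at 0.33 and 0.77.

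Some partners of P450 enzymes were bright. Cytochrome b5 (Cyb5a), an electron donor, ranked 57 of 8251 genes and ran from 21391 to 32566. Pgrmc1, a haem-binding partner, ranked 78, and Alas1, the first enzyme of haem synthesis in non-red cells, ranked 97 with 17745 to 24686. All 9 redox partners on the array passed the filter, and in the CCL3 average 6 were higher and 3 lower (median 0.02).

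Cyb5r1, a cytochrome b5 reductase family member named for the smallest p of its list, gave 862, 1985, 1873 and 1239 after carrier. After CCL3 it gave 2545, 2360.3, 2708 and 2718, with no overlap. Of all 8251 genes, 1.41% had their CCL3 arrays above their carrier arrays in this way. The CCL3 average of Cyb5r1 was 0.82 ± 0.25 (unadjusted p = 0.00936 and adjusted p = 0.969 in limma), and was 0.54 without C57BL/6 carrier replicate 1. It was the only one of the 9 with an unadjusted p under 0.05 in limma, against 2.36% of all probe sets higher and 2.17% lower. Of 7 haem synthesis genes on the array, Fech did not pass the filter. Of the 6 tested haem synthesis genes, 5 were higher and 1 lower (median 0.40), with Alad, the second enzyme of the pathway, at 0.46 ± 0.22, and none of the 6 reached an unadjusted p under 0.05. Urod read 1064.5 on C57BL/6 carrier replicate 1 and at least 3664 elsewhere. Without that array the 6 genes still gave 5 higher and 1 lower, with a median of 0.13 and Alad at 0.23.

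Of 62 conjugating and dehydrogenase enzymes, 48 were tested, and in the CCL3 average 34 were higher and 14 lower (median 0.11), with an unadjusted p under 0.05 in limma for 4 of the higher and 1 of the lower, against 2.36% and 2.17% of all probe sets. Gstm1, a glutathione transferase, ranked 29, and Adh1, an alcohol dehydrogenase, ranked 89. Their summed intensity was 389556 and 420474 on the C57BL/6 carrier arrays and 454001 to 521841 on the other 6.

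Regulators of P450 genes spread widely in rank, from the lipid regulator Srebf1 at 232 downward. Of 23 on the array, 15 were tested. The aryl hydrocarbon receptor Ahr ranked 5041 (371 to 912), its partner Arnt ranked 5128 and CAR (Nr1i3) ranked 4091, whereas the repressor Ahrr and PXR (Nr1i2) did not pass the filter. In the CCL3 average 8 were higher and 7 lower (median 0.04), Ahr at -0.29 ± 0.22 and Arnt at -0.12 ± 0.25.

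After carrier, 4 of the 15 regulators had an unadjusted p under 0.05 in limma and a lower signal on arrays labelled Ccl3-/-, and 0 a higher one, against 6.4% and 5.03% of all probe sets. They were Srebf1, a regulator of lipid synthesis, at -0.90 ± 0.28, the fatty acid receptor Ppara at -0.84 ± 0.34, the steroidogenic factor Nr5a1 at -0.81 ± 0.25 and Cebpa at -0.79 ± 0.24. Their adjusted p was 0.375 to 0.416 in limma. Srebf1 was -0.53 without C57BL/6 carrier replicate 1, and Ppara was -0.46 without Ccl3-/- carrier replicate 2. The C57BL/6 carrier arrays of this comparison are those with the high hepatocyte markers, whose part was not tested.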

How the data were processed

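Total RNA of olfactory mucosa was hybridised to single-colour arrays. The authors' deposited table holds 1 linear intensity per probe set and array; the sources used here do not give the software or the scaling. The platform annotation names 1 gene for 10855 of the 12488 probe sets, several for 396 and none for 1237. All 39 member genes matched the GRCm38.p6 gene table, used for names and neighbours. The members and gene lists were chosen with earlier results of these data known.

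Values were not normalized again. They were analysed as log2(intensity + 102.3), the 20th percentile of the table, and probe sets with at least 2 arrays above 362.7, the 40th percentile, were tested, leaving out 66 control probe sets. limma 3.58.1 (R 4.3.3) fitted 4 group means to all 8 arrays with an intensity trend (4 residual degrees of freedom). The Benjamini-Hochberg adjustment ran over 8150 probe sets of 6181 genes. Named genes were the 12 brightest members and those with an unadjusted p under 0.05; from other lists, up to 4 with the smallest p, beside levels of known partners. The script was tested on simulated data. Alternatives were other normalizations, pseudocounts, filters, variance models, probe set choices, a replicate block and leaving out each array. The number of arrays limits the precision.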

Additional observations from a re-analysis of the deposited data

Results flagged for a closer look

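Cyp2c38 was picked out because the CCL3 arrays lay below both carrier arrays in C57BL/6 and above both in Ccl3-/-. It gave 1199 and 1023 after carrier against 369 and 1003 after CCL3 in C57BL/6, and 648 and 429.6 against 689 and 869 on the arrays labelled Ccl3-/-. The CCL3 difference was -0.75 ± 0.39 and 0.47 ± 0.39 (log2 ± SE, 2 arrays per group), and the difference between them was 1.22 ± 0.56. That interaction did not pass in limma (unadjusted p = 0.0531, adjusted p = 0.908), and over 19 alternatives it ran from 0.60 to 1.83, with an adjusted p of 0.428 to 1.00. Its probe set is one that shares sequence with other transcripts. The share of all genes with such an order of arrays was not counted, and the cause was not tested.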

How the results depend on the processing

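No P450 gene passed the adjusted threshold in limma under any of the alternatives run on all 8 arrays; leaving out 1 array gave 0 to 1 called member after carrier between genotypes, in C57BL/6 after CCL3 and in the CCL3 average, the 1 being Cyp2f2 without C57BL/6 carrier replicate 2 (0.0263, 0.0241 and 0.0464 as adjusted p). Its genotype difference after carrier ran from -0.071 to 1.41 over the arrays left out. Over all probe sets, leaving out 1 array gave 0 to 113 calls after carrier between genotypes, 0 to 1 after CCL3, 0 to 74 for CCL3 in C57BL/6, 0 to 1 in Ccl3-/-, 0 to 6 for the genotype average and 0 to 20 for the CCL3 average, the highest counts without C57BL/6 carrier replicate 2. The count of 5 members higher in the CCL3 average at an unadjusted p under 0.05 was 1 to 4 with 1 array left out and 4 to 6 otherwise.

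The P450 median without a filter was -0.11 for CCL3 in C57BL/6, -0.049 in Ccl3-/-, 0.16 for the interaction and -0.14 for the CCL3 average; the interaction was 0.20 with a filter at the 60th percentile. With 1 array left out it was 0.024 to 0.30 for CCL3 in C57BL/6 and -0.38 to 0.17 for the interaction. Only the groups compared gave 1 call after CCL3 between genotypes, and the mean of all probe sets of a gene gave 1 for the genotype average and ranks of 1459 for Cyp1a1 and 1784 for Cyp21a1. With the replicate block, 1 probe set was called, no P450 gene among them, after carrier between genotypes, in the genotype average and in the CCL3 average, and the differences of named members were unchanged, with Cyp4v3 after CCL3 at an unadjusted p of 0.0562 in limma, which left no member under 0.05 there. Replicate numbers did not pair the arrays (correlations of -0.158 to 0.178). Direction was followed under the alternatives for member differences with an unadjusted p under 0.05 in limma, with Cyp2f2 after carrier and Cyp2c38 added. Of these values, 290 kept their direction and side of the threshold and 1 reversed, and the rest were Cyp2f2 without C57BL/6 carrier replicate 2. Other differences of named members were not counted. Among them, Cyp4a12b between genotypes after carrier reversed to -0.30 without C57BL/6 carrier replicate 1. Signal over background limits the 20 dim members.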
